A study of Homo sapiens with 8 samples.

Results

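The genes described here build the outer ends of glycans and supply their sialic acid. They were taken from the array's gene table by name. The rule took the sialyltransferase families ST3GAL, ST6GAL, ST6GALNAC and ST8SIA, the fucosyltransferases (FUT), and the B3GNT, B3GALT, B4GALT, GALNT and GCNT families. It added A4GALT, C1GALT1 and its chaperone C1GALT1C1, and 5 genes of sialic acid supply (GNE, NANS, NANP, CMAS and SLC35A1). Of 82 such symbols, 80 had a probe set of their own, among 17958 genes in all. B3GNT9 and FUT7 lay only on probe sets shared with a neighbouring gene and were not analysed here.

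Total RNA of 2 human lymphoma cell lines was measured on 8 whole-transcript arrays. KMH2 is a Hodgkin lymphoma line, measured untreated on 3 arrays (KMH2 control) and after 24 h in glucosamine on another 3 (KMH2 glucosamine). The series' design calls the KMH2 arrays biological replicates. Ramos, a Burkitt lymphoma line, was measured on 2 arrays, for which the labels and the design text disagree: both are labelled control, while the series' design describes 1 as treated with glucosamine. They were therefore used as a cell line only. Nothing says that the Ramos arrays came from separate cultures, so their spread may be technical. Cells were grown in serum-supplemented RPMI medium, no genetic change is named, and the sources used here give no glucosamine dose. Each line stands for 1 tumour.

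Glycans grow in the Golgi by the stepwise addition of sugars from activated donors. Glucosamine enters the hexosamine pathway, whose product UDP-GlcNAc is both a donor and the starting material of sialic acid. GNE turns UDP-GlcNAc into phosphorylated N-acetylmannosamine, NANS and NANP make free sialic acid from it, CMAS activates it, and SLC35A1 carries the activated form into the Golgi. The terminal enzymes then decide which sugars cap a chain, and on B cells these caps are read by lectins such as CD22.

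Signals were log2 values per probe set, and differences are log2 differences between group means. A gene was said to rise or fall, or to be higher or lower, where its adjusted p was under 0.05 (limma, Benjamini-Hochberg over 19181 probe sets). Array medians lay between 5.62 and 5.68. KMH2 carried the Hodgkin markers TNFRSF8 (CD30, 8.74 in control) and BATF3 (9.59), and 5 of 6 Hodgkin markers were lower in Ramos, while CCL22 was higher there (7.97 against 5.87). KMH2 control had low signals of the B-cell markers MS4A1 (3.70), CD79A (5.75), CD79B (5.25) and CD22 (5.27), while PAX5 read 7.46. Of its germinal centre markers BCL6 read 7.89, MYBL1 7.11, RGS13 6.84, CD38 4.91 and MME 3.87. In Ramos MS4A1 read 11.04 and 10.83 and CD79A 11.78 and 11.81. After glucosamine 5 of 6 Hodgkin markers fell, TNFRSF8 by 0.73 and BATF3 by 0.87, and the list averaged 8.54 to 8.63 in control and 8.00 to 8.14 in glucosamine arrays. Of 5 B-cell and 5 germinal centre markers 1 and 2 fell. By contrast 0 of 9 fibroblast and epithelial markers passed the test, 1 of 10 T and NK markers fell (CD4, by 0.28), and among 7 myeloid markers CSF1R rose by 0.54 and CD14 fell by 1.08. The T and NK list averaged 5.72 to 5.78 in control and 5.67 to 5.74 in glucosamine arrays. The myeloid list averaged 5.86 to 5.93 and 5.83 to 5.83. The fibroblast and epithelial list averaged 5.04 to 5.16 and 4.99 to 5.08. The part of these marker shifts in the results was not tested. Deviations of the replicate 1 arrays from their group means ran together in both KMH2 groups, so values without them are given where a result turns on them.

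The first comparison asked how the genes responded to glucosamine in KMH2. In sialic acid supply 3 of 5 genes rose and 0 fell, where 11.9% of all probe sets rose. Single transferases moved in both directions: FUT1, GALNT11 and B4GALT3 rose most and GALNT12, B4GALT6 and B3GNT2 fell most. Of the 20 sialyltransferases 1 passed the test, and it fell.

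Over all 80 genes 9 rose, 9 fell and 62 did not pass. That is 22.5% called, against 25.8% of all probe sets tested (11.9% higher and 13.9% lower), a share near the background. Their median difference was 0.02, against 0.01 over all genes. The 18 called genes changed by 0.18 to 0.86 in size, with a median of 0.34, and none reached 2-fold, as 0.829% of probe sets did (0.391% higher and 0.438% lower). In 30 of the 80 genes no glucosamine array overlapped the controls, against 40.9% of probe sets. Of these, 13 lay above (20.3% of probe sets) and 17 below (20.6%), and all 18 called genes were among the 30. In whole-culture RNA, fewer cells of a kind and less RNA per cell cannot be told apart.

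Counts of rising and falling genes depended on the arrays used and on how the spread was taken. With the replicate block, which compares arrays of the same number, 10 rose and 14 fell. Without KMH2 control replicate 2, 5 fell, and without both replicate 1 arrays 9 rose and 12 fell. With the spread shared over all 8 arrays, 5 rose and 3 fell.

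**Figure D1:**
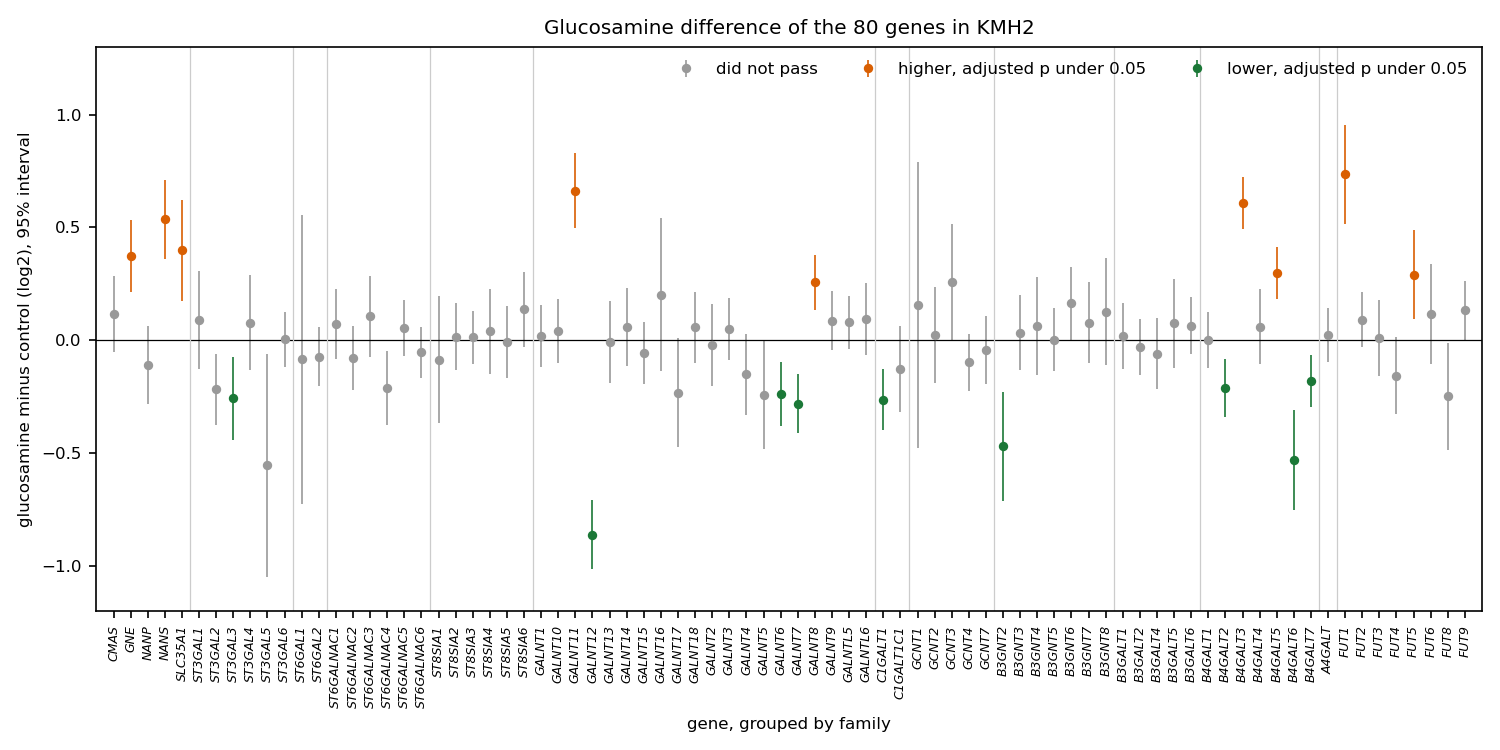
Glucosamine minus control difference (log2, y axis) of each of the 80 genes in KMH2 (x axis, grouped by family between the grey lines), from 3 arrays per group. Points are mean differences, bars are 95% intervals from limma, and colour marks the adjusted p. Most genes lie near 0, with GALNT12 lowest at -0.86 and FUT1 highest at 0.74.

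In sialic acid supply, NANS, the sialic acid synthase, read 8.60, 8.52 and 8.64 in the control arrays and 9.26, 8.99 and 9.11 after glucosamine. It rose by 0.54 ± 0.08 (SE), 1.45-fold, with adjusted p = 0.00155. Every glucosamine array lay above every control array, and the call held in every alternative tried, over an adjusted p of 0.000657 to 0.00991.

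GNE, the epimerase and kinase that opens the pathway and is its rate-limiting step, read 8.15, 8.26 and 8.10 in control and 8.45, 8.64 and 8.54 after glucosamine, and the groups did not overlap. It rose by 0.37 ± 0.07 (SE, adjusted p = 0.00503). SLC35A1, the Golgi importer of activated sialic acid, read 7.02, 7.19 and 7.26 against 7.39, 7.56 and 7.72, again without overlap, and rose by 0.40 ± 0.10 (adjusted p = 0.0178). The SLC35A1 call was lost without KMH2 control replicate 1 (0.0584) or KMH2 glucosamine replicate 3 (0.0573), over a range of 0.00147 to 0.174. With the spread of all 8 arrays neither GNE (0.335, range 0.00207 to 0.335) nor SLC35A1 (0.174) passed. That spread includes the Ramos arrays, which lay 1.02 apart in GNE and 0.66 apart in SLC35A1.

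CMAS and NANP did not pass. CMAS, which activates sialic acid, read 8.63, 8.60 and 8.79 in control and 8.69, 8.82 and 8.85 after glucosamine, a difference of 0.12 with a 95% interval of -0.05 to 0.28. NANP, the phosphatase, read 6.66, 6.67 and 6.65 against 6.39, 6.61 and 6.65, a difference of -0.11 with an interval of -0.28 to 0.06. The ranges overlapped in both, and these intervals do not reach a rise as large as that of NANS.

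The promoters of the 3 rising supply genes and of FUT1, the transferase with the largest rise, are shown because these genes rose together at 24 h. Each is 250 bases before to 50 after a start site, from RefSeq on GRCh38.p14, read 5′ to 3′ on the gene's strand. Of the 80 genes 62 had at least 1 entry and together 98 promoters. Capitals mark matches to the letters searched on both strands: TGATGNAA (amino acid response element), TGACGTGG (unfolded protein response element), the ER stress element by its full consensus, CACGTG (E box) and TTTCCCGC (E2F site). The reverse of TGACGTGG shares CCACG with the ER stress element. GNE and FUT1 each have 2 start sites in the table; the windows are, in order, NANS at chr9:98056482-98056781 (+ strand), SLC35A1 at chr6:87472724-87473023 (+ strand), GNE at chr9:36258399-36258698 and chr9:36276929-36277228 (- strand), and FUT1 at chr19:48755309-48755608 and chr19:48752592-48752891 (- strand).
NANS: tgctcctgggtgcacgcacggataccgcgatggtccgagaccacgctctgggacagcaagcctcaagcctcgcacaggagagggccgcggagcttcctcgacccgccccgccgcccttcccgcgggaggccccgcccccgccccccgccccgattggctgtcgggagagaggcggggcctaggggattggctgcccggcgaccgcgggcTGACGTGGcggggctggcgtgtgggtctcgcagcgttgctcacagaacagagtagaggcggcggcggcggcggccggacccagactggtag
SLC35A1: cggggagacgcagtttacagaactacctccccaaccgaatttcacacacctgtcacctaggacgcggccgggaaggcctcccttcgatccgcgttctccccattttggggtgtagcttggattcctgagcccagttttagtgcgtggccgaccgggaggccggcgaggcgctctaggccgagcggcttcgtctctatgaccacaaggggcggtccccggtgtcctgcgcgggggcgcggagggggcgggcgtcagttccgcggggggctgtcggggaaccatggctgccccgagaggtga
GNE, downstream start: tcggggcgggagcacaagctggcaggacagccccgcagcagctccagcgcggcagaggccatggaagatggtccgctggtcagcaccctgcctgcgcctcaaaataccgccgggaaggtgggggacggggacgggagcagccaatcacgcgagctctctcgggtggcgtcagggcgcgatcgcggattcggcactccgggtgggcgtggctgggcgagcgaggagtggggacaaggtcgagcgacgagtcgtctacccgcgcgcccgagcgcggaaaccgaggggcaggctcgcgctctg
GNE, upstream start: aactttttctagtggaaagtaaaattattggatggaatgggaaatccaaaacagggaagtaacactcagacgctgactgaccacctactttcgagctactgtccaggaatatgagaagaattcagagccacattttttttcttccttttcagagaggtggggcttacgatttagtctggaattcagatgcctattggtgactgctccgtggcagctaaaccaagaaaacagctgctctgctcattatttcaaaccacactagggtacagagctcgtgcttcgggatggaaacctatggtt
FUT1, upstream start: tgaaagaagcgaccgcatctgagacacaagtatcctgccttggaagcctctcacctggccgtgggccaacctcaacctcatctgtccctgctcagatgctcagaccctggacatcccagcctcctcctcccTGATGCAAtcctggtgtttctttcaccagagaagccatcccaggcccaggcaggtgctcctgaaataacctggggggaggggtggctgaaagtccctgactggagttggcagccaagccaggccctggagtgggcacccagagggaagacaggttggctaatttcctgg
FUT1, downstream start: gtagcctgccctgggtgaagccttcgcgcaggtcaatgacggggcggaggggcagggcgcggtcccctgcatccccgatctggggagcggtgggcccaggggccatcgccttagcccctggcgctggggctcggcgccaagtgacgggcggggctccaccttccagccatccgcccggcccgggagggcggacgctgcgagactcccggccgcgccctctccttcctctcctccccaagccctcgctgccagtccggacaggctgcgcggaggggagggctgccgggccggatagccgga

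NANS held TGACGTGG from 41 to 34 bases before its start, and FUT1 held TGATGNAA from 119 to 112 bases before the upstream of its start sites. The GNE and SLC35A1 windows held none of the 5 motifs. TGACGTGG occurred in 2 of the 98 promoters (NANS and GCNT1), and in 0.729% of all 35116. TGATGNAA occurred in 4 (FUT1, FUT8, B3GALT5 and GCNT2), 4.08% against 3.62% of all. The E box lay in 7, 7.14% against 7.26%, the E2F site in 1 (ST3GAL4), 1.02% against 1.63%, and the ER stress element in 0, against 0.0769%. Besides NANS and FUT1, the only gene called after glucosamine that held any of these letters was B4GALT2, with E boxes, and it fell.

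Sialyltransferases attach sialic acid in a linkage set by their family. Here 0 of 20 rose, 1 fell and 19 did not pass (5.00% called, against 25.8% of probe sets). The gene that fell was ST3GAL3, which caps galactose of N-glycans and glycolipids. It read 7.28, 7.54 and 7.48 in control and 7.18, 7.25 and 7.09 after glucosamine, so the groups nearly touched. The fall was 0.26 ± 0.08 (SE) with adjusted p = 0.0458. That call was lost without KMH2 control replicate 2 (0.157) or 3 (0.142), without KMH2 glucosamine replicate 1 (0.0675), 2 (0.0565) or 3 (0.149), with quantile normalization (0.073), with all probe sets tested (0.0895) and with the shared spread (0.0887), over a range of 0.00992 to 0.157.

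In the sialyltransferases with low signals a narrow interval does not show a lack of response. Among the 19 that did not pass, the median interval reached 0.16 to either side of the difference. The intervals of 18 lay within 2-fold in both directions. The exception was ST3GAL5, the synthase of the ganglioside GM3. It read 7.82, 7.03 and 6.98 in control replicates 1 to 3 and 6.96, 6.66 and 6.55 in the glucosamine arrays of those numbers. Every glucosamine array lay below every control array, with replicate 1 the highest of each group, and the difference was -0.56 with an interval of -1.05 to -0.06 (adjusted p = 0.0987). In the paired fit with the replicate block it passed (adjusted p = 0.0037). Without KMH2 control replicate 1 the ST3GAL5 difference was -0.28 (adjusted p = 0.139), and without both replicate 1 arrays -0.40 (adjusted p = 0.00302). ST3GAL2, which caps O-glycans and gangliosides, read 9.23, 9.13 and 9.02 against 8.98, 8.91 and 8.85, a difference of -0.22 just outside the threshold (adjusted p = 0.0504, and 0.0197 with the block). ST3GAL2 also passed without KMH2 control replicate 3 (0.0368) and without KMH2 glucosamine replicate 1 (0.0366).

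ST6GAL1, the main α2,6-sialyltransferase of N-glycans and maker of the CD22 ligand, did not pass. It read 4.77, 5.37 and 5.45 in control and 4.47, 5.43 and 5.44 after glucosamine, so replicate 1 was low in both groups and the treatment groups overlapped (difference -0.09, interval -0.73 to 0.55). Without both replicate 1 arrays the ST6GAL1 difference was 0.02. CD22 itself read 6.09 and 5.94 in the replicate 1 arrays and 4.79 to 5.13 in the other KMH2 arrays. ST3GAL1, which caps core 1 O-glycans, read 4.97, 4.64 and 4.69 against 4.94, 4.75 and 4.87 (0.09, interval -0.13 to 0.31). The 6 polysialic and disialic acid enzymes (ST8SIA) differed by -0.09 to 0.14 and the 6 ST6GALNAC genes by -0.21 to 0.10. In either family 0 were called, against 25.8% of all probe sets. A second, dimmer probe set of ST8SIA1, the GD3 synthase, was lower after glucosamine (-0.36, adjusted p = 0.0323), while the one used here was not called (-0.09).

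Fucosyltransferases gave 2 rises and 0 falls among 8, a share called near the 25.8% of all probe sets. FUT1 adds the α1,2-fucose of the H blood group antigen. It read 5.33, 5.46 and 5.39 in control and 5.91, 6.17 and 6.29 after glucosamine, the largest rise of the 80 genes (0.74 ± 0.10, SE, 1.66-fold, adjusted p = 0.00101). Its groups were well apart and its call held in every alternative. FUT5, an α1,3- and α1,4-fucosyltransferase, read 6.00, 6.14 and 6.01 against 6.52, 6.24 and 6.26 and rose by 0.29 (adjusted p = 0.0385).

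FUT5 has near-identical neighbours in FUT3 (difference 0.01) and FUT6 (0.11), neither called, so its probe set is uncertain. Its call was lost without KMH2 control replicate 1 (0.113), 2 (0.0521) or 3 (0.12), without KMH2 glucosamine replicate 1 (0.0525) or 3 (0.0585), without both replicate 1 arrays (0.0946), with quantile normalization (0.0532), with all probe sets tested (0.0796) and with the shared spread (0.0877), over a range of 0.0315 to 0.12. FUT8, which adds core fucose to N-glycans, read 9.49, 9.14 and 9.09 against 9.06, 8.97 and 8.95. It did not pass (-0.25, adjusted p = 0.121), except with the replicate block that pairs arrays by number (0.0337). Without KMH2 control replicate 1 the FUT8 difference was -0.12. FUT4, which makes the Lewis x antigen CD15 of Hodgkin cells, read 7.57, 7.39 and 7.30 against 7.30, 7.24 and 7.24 (adjusted p = 0.168).

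**Figure D2:**
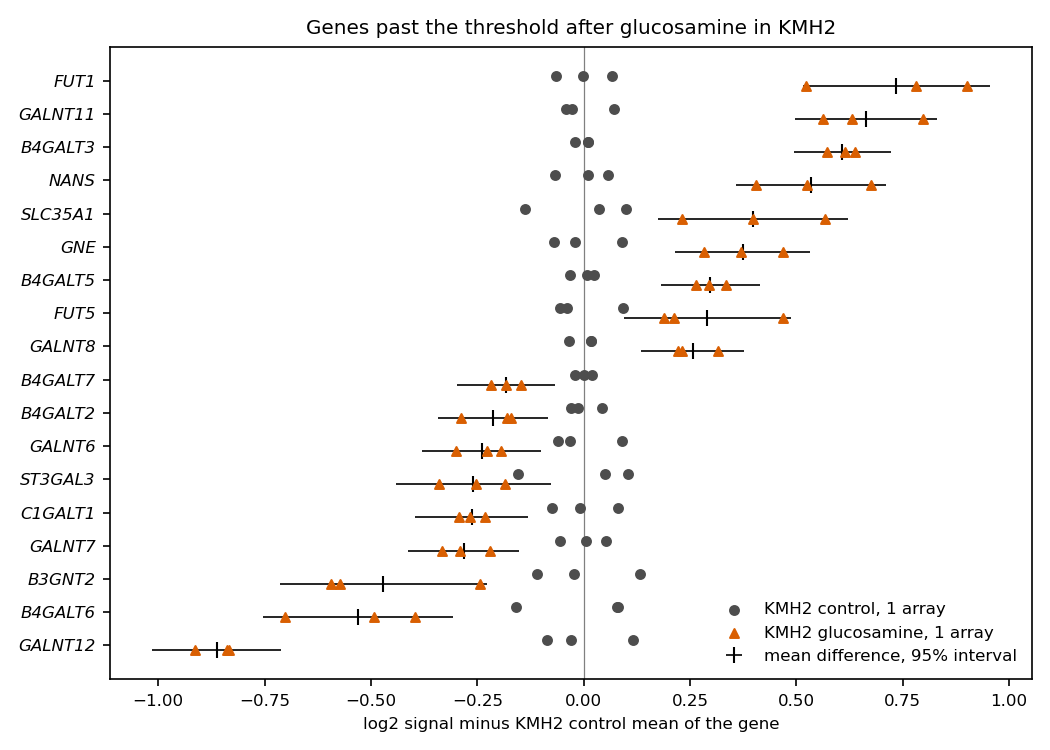
Signals of the 18 genes past the threshold, 1 point per array, as log2 signal minus the control mean of the same gene (x axis) for each gene (y axis). Circles are the 3 control arrays, triangles the 3 glucosamine arrays, and the bar is the mean difference with its 95% interval. In all 18 the groups do not overlap, and ST3GAL3 has the narrowest gap.

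The GALNT enzymes start O-glycans by adding GalNAc to serine or threonine. Of 20 measured, 2 rose, 3 fell and 15 did not pass, a share called again near the 25.8% of all probe sets. GALNT12 read 7.43, 7.29 and 7.23 in control and 6.48, 6.40 and 6.48 after glucosamine, and fell by 0.86 ± 0.07 (SE, adjusted p = 0.000107), the largest change of the 80 genes. GALNT11, known for its action on Notch1, moved the other way, from 5.66, 5.67 and 5.77 to 6.26, 6.50 and 6.33 (0.66 ± 0.07, SE, adjusted p = 0.000455). These groups were far apart, and both calls held in every alternative. GALNT7, which extends already started glycopeptides, fell from 9.43, 9.37 and 9.47 to 9.09, 9.20 and 9.13, by 0.28 (adjusted p = 0.00762).

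GALNT8 read 3.98, 3.93 and 3.98 against 4.19, 4.28 and 4.20 and rose by 0.26, at a signal near the low end of the arrays. It was not called with the shared spread (0.0626, range 0.00731 to 0.0626). GALNT6 read 7.58, 7.73 and 7.61 against 7.34, 7.45 and 7.42 and fell by 0.24 (adjusted p = 0.0216). Its call was lost without KMH2 control replicate 2 (0.0834) or 3 (0.0517), without KMH2 glucosamine replicate 3 (0.0609) and with the shared spread (0.363), over a range of 0.0131 to 0.363. Both were small differences between groups that did not overlap.

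The widely expressed initiators GALNT1 and GALNT2 did not pass. GALNT1 differed by 0.02 with an interval of -0.12 to 0.15, and GALNT2 by -0.02 with an interval of -0.20 to 0.16. GALNT5 (-0.24) and GALNT17 (-0.23) did not pass (adjusted p = 0.132 and 0.156) but did in the paired fit with the replicate block (0.0491 and 0.0133). GALNT17 also passed without both replicate 1 arrays (0.02). The other 11 differed by -0.15 to 0.20.

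The next O-glycan step is core 1, made by C1GALT1 with its dedicated chaperone C1GALT1C1 (Cosmc). C1GALT1 read 8.17, 8.08 and 8.01 in control and 7.85, 7.82 and 7.79 after glucosamine. It fell by 0.26 ± 0.06 (SE, adjusted p = 0.0114), with no overlap, and was not called with the shared spread (0.0544, range 0.00891 to 0.0544). C1GALT1C1 read 5.95, 5.86 and 5.97 against 5.64, 5.81 and 5.95, overlapping groups with a difference of -0.13 and an interval of -0.32 to 0.06.

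Of the 5 GCNT genes, which branch O-glycans and poly-N-acetyllactosamine, 0 were called, against 25.8% of all probe sets. So few genes say little about that share. GCNT1, the core 2 enzyme, read 7.01, 6.22 and 6.21 against 7.19, 6.31 and 6.40, with replicate 1 high in both groups. Without KMH2 control replicate 1 the GCNT1 difference was 0.42, and without both replicate 1 arrays 0.14, against 0.15 with all. GCNT3, another core 2 enzyme, differed by 0.26 and did not pass (adjusted p = 0.139). It passed in the paired fit with the replicate block (0.0259), without KMH2 control replicate 1 (0.39, adjusted p = 0.013) and without both replicate 1 arrays (0.33, adjusted p = 0.0067).

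Galactosyltransferases of the B4GALT family were called in 5 of 7 cases (71.4%), 2 higher and 3 lower, against 25.8% of probe sets. B4GALT3, which acts on N-glycans, was the steadiest riser, from 8.84, 8.84 and 8.81 to 9.45, 9.41 and 9.47 (0.61 ± 0.05, SE, adjusted p = 0.000132). B4GALT5 and B4GALT6 both make lactosylceramide, the base of most glycolipids, and moved in opposite directions. B4GALT5 rose from 9.84, 9.83 and 9.79 to 10.08, 10.15 and 10.11, by 0.30 ± 0.05 (SE, adjusted p = 0.00338). B4GALT6 fell from 7.98, 8.22 and 8.22 to 7.44, 7.74 and 7.65, by 0.53 ± 0.10 (SE, adjusted p = 0.00481). The calls of these 3 held in every alternative.

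B4GALT7, which builds the linker of glycosaminoglycans, fell by 0.18, from 8.62, 8.64 and 8.60 to 8.47, 8.44 and 8.40 (adjusted p = 0.0285). Its call was lost without KMH2 control replicate 1 (0.0725), 2 (0.101) or 3 (0.0648), without KMH2 glucosamine replicate 2 (0.0696) or 3 (0.104), with quantile normalization (0.058) and with the shared spread (0.193), over a range of 0.0217 to 0.193. B4GALT2 fell by 0.21, from 8.89, 8.82 and 8.84 to 8.67, 8.56 and 8.68 (adjusted p = 0.0245). That call was lost without KMH2 control replicate 1 (0.079), 2 (0.0605) or 3 (0.0653), without KMH2 glucosamine replicate 2 (0.0764) and with the shared spread (0.282), over a range of 0.0185 to 0.282. Both were small changes in bright genes. B4GALT1, the main galactosyltransferase of N-glycans, read 9.93, 10.02 and 9.99 against 9.97, 9.95 and 10.03, a difference of -0.00 with an interval of -0.12 to 0.12.

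B3GNT2, the main enzyme of poly-N-acetyllactosamine chains, fell from 8.94, 8.78 and 8.70 to 8.56, 8.23 and 8.21, by 0.47 ± 0.11 (SE, adjusted p = 0.0123). Its groups did not overlap, and it was not called with the shared spread (0.0525, range 0.000832 to 0.0525). The other 6 B3GNT genes differed by 0.00 to 0.16, the 5 B3GALT genes by -0.06 to 0.07 and A4GALT by 0.02. Of these 0 were called, against 25.8% of all probe sets.

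**Figure D3:**
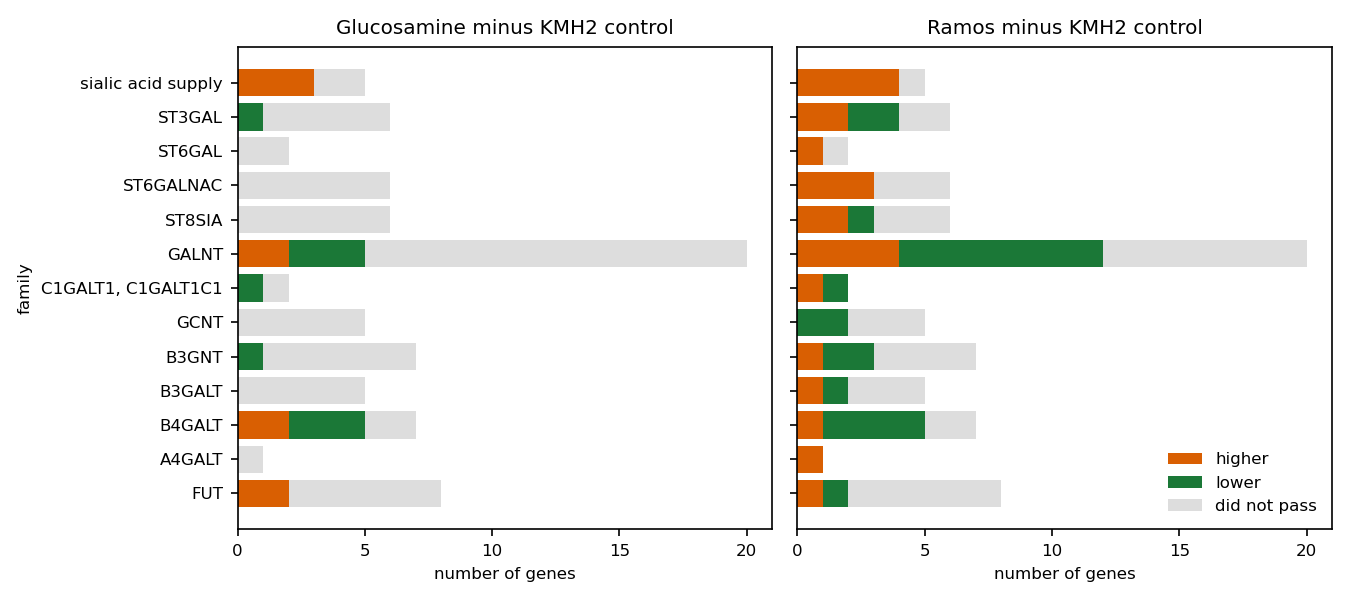
Number of genes (x axis) in each family (y axis) that were higher, lower or did not pass at adjusted p under 0.05, after glucosamine in KMH2 (left) and in Ramos against KMH2 control (right). After glucosamine 3 of 5 supply genes were higher and 1 of 20 sialyltransferases was called, and in Ramos 4 of 5 and 11 of 20. Of all probe sets 25.8% were called after glucosamine and 43.8% in Ramos.

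Genes around the pathway were taken as lists. Among 18 genes of Golgi tethers, golgins and related Golgi proteins, 11 rose and 4 fell (83.3% called, against 25.8% of probe sets, median 0.38). They include the ion transporter TMEM165, which fell by 0.26, and the proton pump subunit ATP6V0A2, which rose by 0.50. GOLGA5 rose by 1.36, GOLGA2 by 0.87 and the COG tether subunit gene COG5 by 0.59, while COG2 fell by 0.73, COG4 by 0.33 and COG7 by 0.31. Both directions thus occurred within the COG complex, a tether that keeps Golgi enzymes in place. COG7 was not called with the shared spread (0.0887, range 0.00444 to 0.0887).

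For sugar-nucleotide supply and transport 3 of 19 rose and 5 fell (42.1% called, against 25.8% of all probe sets). The UDP-galactose importer SLC35A2 rose by 0.29 (adjusted p = 0.00968) and the related carrier SLC35A4 fell by 0.48 (0.000897). The fucose kinase FCSK fell by 0.31 (0.00515). UGP2 and UGDH were also counted as rising, but their calls were lost in 9 and 7 of 14 alternatives. SLC35A4 was not called with the shared spread (0.1, range 0.000317 to 0.1). Of 11 genes of sialic acid removal, salvage and modification 1 rose and 3 fell (36.4% called, against 25.8%). Among those that fell were the sialidase NEU3 (-0.40, and adjusted p = 0.0746 with the shared spread, range 0.00131 to 0.0746) and the N-acetylglucosamine kinase NAGK (-0.39).

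In the other lists a smaller share was called than in those above. It was 30.8% for N-glycan branching, above the 25.8% of all probe sets. Below that background were further outer-chain transferases (20%), sulfotransferases (13.3%) and the readers (6.67%). N-glycan branching genes gave 3 rises and 1 fall of 13, with the mannosidase MAN2A2 up by 0.38. Further outer-chain transferases gave 2 and 2 of 20, with the xylosyltransferase GXYLT2 at -0.64. Sulfotransferases gave 2 rises and 0 falls of 15. The calls of GAL3ST3 and CHST10, the genes that rose, were lost in 8 and 7 of 14 alternatives. In a list of 15 readers of sialic acid and fucose, lectins and the selectin ligand SELPLG, 0 rose and 1 fell. That gene was SELPLG (-0.25, adjusted p = 0.031), whose call was lost in 7 of 14 alternatives, over a range of 0.0249 to 0.172. List medians were between -0.01 and 0.06 in all lists but the Golgi one, against 0.01 over all genes.

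The second comparison set Ramos against KMH2 control, and so shares its control arrays with the first. Ramos was higher in ST6GAL1, in the Gb3 synthase A4GALT, in B3GNT5 and in the activated sialic acid carrier SLC35A1, and lower in B4GALT6, GALNT5, B3GALT1 and the GD3 synthase ST8SIA1.

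Of the 80 genes 22 were higher, 22 lower and 36 did not pass, 55.0% called against 43.8% of all probe sets (22.7% higher and 21.2% lower). At least 2-fold differences were called in 21 genes, 9 higher and 12 lower, 26.2% against 14.9% of probe sets (6.45% higher and 8.45% lower). The median difference was 0.03, against 0.06 over all genes. In 45 genes both Ramos arrays lay outside the range of all 6 KMH2 arrays, against 48.3% of probe sets, 23 above (27.1%) and 22 below (21.2%). The Ramos arrays themselves differed by over 0.5 in 10 of the 80 genes (12.5%, against 14.7% of probe sets).

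**Figure D4:**
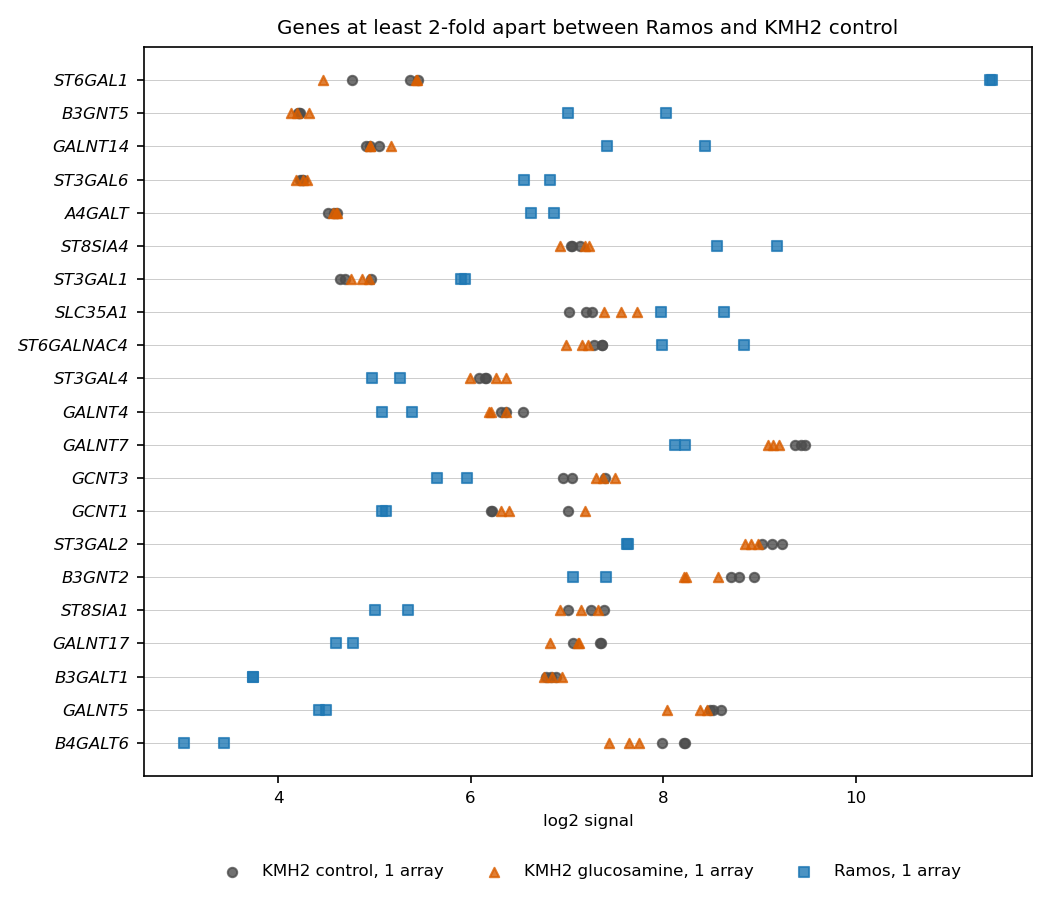
Log2 signal (x axis) on each array for the 21 genes called with at least a 2-fold difference between Ramos and KMH2 control (y axis, ordered by the difference). Circles are KMH2 control, triangles KMH2 glucosamine and squares Ramos, and the Ramos arrays lie apart from all KMH2 arrays in every gene shown. ST6GAL1 stands at 11.39 and 11.41 in Ramos and between 4.47 and 5.45 in KMH2.

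ST6GAL1 had the widest difference of the 80 genes. Ramos arrays read 11.39 and 11.41, and KMH2 control arrays 4.77, 5.37 and 5.45, a difference of 6.20 ± 0.31 (SE), 73.7-fold, with adjusted p = 1e-06. CD22, the B-cell lectin that binds the glycan ST6GAL1 makes, was higher in Ramos by 5.79 (11.30 and 10.83). Without KMH2 control replicate 1 the ST6GAL1 difference was 5.99. Both thus had low signals in KMH2 and high ones in Ramos.

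The other sialyltransferases of lactosamine and O-glycans differed in both directions. ST3GAL6 read 6.55 and 6.82 in Ramos against 4.26, 4.25 and 4.23 (2.44, adjusted p = 1.26e-07), and ST3GAL1 5.90 and 5.94 against 4.97, 4.64 and 4.69 (1.16, adjusted p = 4.3e-05). Lower in Ramos were ST3GAL2, at 7.64 and 7.62 against 9.23, 9.13 and 9.02 (-1.50, adjusted p = 1.42e-06), and ST3GAL4, at 5.27 and 4.97 against 6.08, 6.16 and 6.15 (-1.01, adjusted p = 0.000237). In these 4 genes both Ramos arrays were clear of every KMH2 array. ST3GAL3 was not called, nor was ST3GAL5 (0.46), which passed without KMH2 control replicate 1 (0.73, adjusted p = 0.0385).

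ST8SIA4, which polymerises sialic acid, was higher in Ramos (8.55 and 9.18 against 7.05, 7.13 and 7.05, a difference of 1.79). ST8SIA1 was lower (5.01 and 5.35 against 7.01, 7.25 and 7.39, -2.04), and its second probe set was lower as well (-1.17). ST6GALNAC4, which acts on sialylated core 1, read 8.84 and 7.98 against 7.28, 7.36 and 7.37 (1.08), and its 2 other probe sets gave 1.02 and 1.03. ST6GALNAC3 (0.77) and ST6GALNAC6 (0.53) were higher too, so 8 of 20 sialyltransferases were higher and 3 lower. That is 55% called, against 43.8% of all probe sets (22.7% higher and 21.2% lower).

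Supply genes were higher in 4 of 5 cases and lower in 0, against 22.7% and 21.2% of all probe sets. SLC35A1 read 7.97 and 8.63 in Ramos against 7.02, 7.19 and 7.26 (1.14 ± 0.19, SE, 2.21-fold, adjusted p = 0.0012). NANS read 9.24 and 9.26 (0.67, adjusted p = 0.000365), both within the range of the glucosamine-treated KMH2 arrays (8.99 to 9.26). CMAS read 9.30 and 9.12 (0.53, adjusted p = 0.00181). GNE read 8.49 and 9.50, and its lower array lay within the range of the glucosamine-treated KMH2 arrays (0.83 ± 0.24, SE, adjusted p = 0.0253). Its call was lost without KMH2 control replicate 1 (0.0647), 2 (0.0527) or 3 (0.0731), and with only the KMH2 control and Ramos arrays in the fit (0.0762), over a range of 7.12e-06 to 0.0762. NANP read 6.62 and 6.40 and was not called. The Ramos arrays lay 1.02 apart in GNE and 0.66 apart in SLC35A1, and the series' design describes 1 of them as treated with glucosamine. The part of such a treatment was not tested.

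Enzymes that build glycolipids differed in both directions. A4GALT, which makes Gb3, the Burkitt lymphoma antigen CD77, read 6.86 and 6.63 in Ramos against 4.52, 4.61 and 4.58 (2.18 ± 0.08, SE, 4.52-fold, adjusted p = 1.55e-07). B3GNT5, which starts the lacto series, read 7.01 and 8.03 against 4.22, 4.20 and 4.22 (3.30, 9.86-fold, adjusted p = 1.06e-05). B4GALT6 read 3.44 and 3.03 against 7.98, 8.22 and 8.22 (-4.91 ± 0.14, SE, a 30.0-fold difference, adjusted p = 3.64e-08), while B4GALT5, with the same reaction, was lower by 0.50 at signals of 9.45 and 9.20. Outside the 80, UGCG, which makes the glucosylceramide they build on, was higher by 0.63, and B4GALNT1, the GM2 and GD2 synthase, lower by 3.06. The globoside enzyme B3GALNT1 (-0.04), ST3GAL5 (0.46) and B3GALT4 (0.15) were not called.

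GALNT genes were higher in 4 and lower in 8 of 20 cases. That is 60% called, against 43.8% of all probe sets (22.7% higher and 21.2% lower). GALNT5 read 4.50 and 4.43 in Ramos against 8.48, 8.52 and 8.60 (-4.07 ± 0.12, SE, 16.8-fold, adjusted p = 3.52e-08). GALNT17 read 4.78 and 4.60 against 7.07, 7.35 and 7.34 (-2.56), although its second probe set did not pass (-0.28, adjusted p = 0.0938). GALNT14 stood on the other side, at 8.44 and 7.42 against 4.92, 4.95 and 5.05 (2.95, adjusted p = 2.27e-05), with its Ramos arrays 2-fold apart. GALNT5 thus had a high signal only in KMH2 and GALNT14 only in Ramos. Other members were bright in both lines, such as GALNT1 (means of 8.35 in KMH2 control and 9.25 in Ramos) and GALNT2 (9.61 and 8.78).

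GALNT7 (8.23 and 8.13 against 9.43, 9.37 and 9.47) was lower by 1.25 and GALNT4 (5.39 and 5.08 against 6.31, 6.54 and 6.36) by 1.17. GALNT2 was lower by 0.83 and GALNT1 higher by 0.90. C1GALT1 read 8.70 and 8.89 and was higher by 0.71, while its chaperone C1GALT1C1 read 5.48 and 5.43 and was lower by 0.47 (adjusted p = 0.00426).

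Among genes that branch and extend chains, 0 of 5 GCNT genes were higher and 2 lower, and 1 of 7 B3GNT genes was higher and 2 lower. Of 5 B3GALT genes 1 was higher and 1 lower, and of 7 B4GALT genes 1 was higher and 4 lower. The shares called were 40% for GCNT, 42.9% for B3GNT, 40% for B3GALT and 71.4% for B4GALT, against 43.8% of all probe sets. GCNT3 read 5.96 and 5.65 against 7.39, 6.96 and 7.05 (-1.33, adjusted p = 0.000115), and GCNT1 5.12 and 5.08 against 7.01, 6.22 and 6.21 (-1.38, adjusted p = 0.00689), where KMH2 control replicate 1 was the control array farthest from Ramos. Without that array the GCNT1 difference was -1.11 (limma, adjusted p = 0.0152). B3GNT2 read 7.40 and 7.06 (-1.58, adjusted p = 3.68e-05). B3GALT1, which makes type 1 chains, read 3.74 and 3.74 against 6.83, 6.89 and 6.78 (-3.09 ± 0.07, SE, 8.53-fold, adjusted p = 1.17e-08). B4GALT1 read 8.96 and 9.20 and was lower by 0.90, whereas B4GALT4 and the linker enzyme B3GALT6 were higher by 0.96 and 0.78.

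Among the fucosyltransferases FUT4 was lower (6.69 and 6.47 against 7.57, 7.39 and 7.30, -0.84, adjusted p = 0.00018) and FUT2 slightly higher (0.27). FUT1, which had risen after glucosamine, was not called (5.69 and 5.46 against 5.33, 5.46 and 5.39). GALNT11 and B4GALT3, which had also risen, were lower in Ramos by 0.53 and not called (8.81 and 9.29), respectively. GALNT12 read 7.05 and 6.61 and was lower by 0.49 (adjusted p = 0.0135). The calls of FUT2, GALNT9, GALNT10, ST8SIA3 and B3GNT4 were small (0.22 to 0.32 in size) and were each lost in 2 to 7 alternatives. The highest adjusted p was 0.056 for FUT2, 0.134 for GALNT9, 0.106 for GALNT10, 0.211 for ST8SIA3 and 0.12 for B3GNT4.

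In the lists around the pathway, 6 of 19 genes of sugar-nucleotide supply and transport were higher and 8 lower. That is 73.7% called, against 43.8% of all probe sets. Among the lower ones were the GDP-fucose synthesis genes GMDS (-1.49) and GFUS (-1.77). GALM, an aldose epimerase, was lowest of that list (-5.53). N-glycan branching genes were higher in 5 and lower in 2 of 13 (53.8% called), with MGAT5 at 1.49 and MGAT4A at 2.48. The counts were 2 and 2 of 11 (36.4% called) for sialic acid removal and salvage, where the sialic acid acetyltransferase CASD1 was higher by 1.38. They were 3 and 4 of 20 (35% called) for other outer-chain transferases and 2 and 3 of 15 (33.3%) for sulfotransferases. For the readers they were 3 and 0 of 15 (20%). For the Golgi list they were 4 and 2 of 18 (33.3%), and GOLGA5 was higher by 2.19.

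Called in neither comparison were 29 of the 80 genes, several of them with signals near the low end of the arrays. The share of all probe sets called in neither was not counted, so whether 29 is many or few cannot be said. In 20 of the 80 the mean over the arrays was below 5, where a change may not show. Among these were 1 gene called after glucosamine (GALNT8) and 5 in Ramos. The share of all probe sets below 5 was not counted either. B3GALT4 had 3 probe sets and ST6GALNAC2 a pair, and the copies gave equal means in every group.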

How the data were processed

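Total RNA of 8 samples was labelled with biotin and hybridised to HuGene-1_1-st-v1 arrays, per the labels' protocols. The deposited values are log2 signals per probe set, on a scale common to the arrays. Their background correction, normalization and summarization are not given in the sources used here. Array depth does not apply; the number of arrays limits precision.

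Of 33297 probe sets 19181 carried 1 gene symbol and were tested, 2055 carried several and 12061 none. The probe set with the highest mean stood for a gene. The glucosamine fit used the 6 KMH2 arrays and the cell-line fit all 8 in 3 groups, with limma 3.58.1 in R 4.3.3, a two-sided test, Benjamini-Hochberg adjustment and a threshold of 0.05.

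Deviations of same-numbered KMH2 arrays correlated at 0.46, 0.23 and 0.23, all over 0.1, so a fit that pairs arrays by number was also run. That fit is the replicate block. The main glucosamine fit did not pair the arrays, and its counts and adjusted p ignore any pairing. Differently numbered arrays correlated at -0.37 to 0.25, and control 2 with glucosamine 3 (0.25) and control 3 with glucosamine 2 (0.18) were as close, so only replicate 1 stood apart. Deviations from a group mean cancel out within the group. The negative correlations of replicate 1 with the other arrays thus follow from its match and are no separate observation. Members and lists were chosen with earlier results of these data known. Per-array values were given for genes called after glucosamine, for genes called in Ramos with at least 2-fold, and for 10 genes set by role. Those of ST3GAL5, FUT4, FUT8, CD22 and CCL22, and the differences of B3GALNT1, TMEM165 and ATP6V0A2, were added after the values were seen. In the lists, called genes with the smallest p were named, at most 3 in each direction. Alternatives were quantile normalization, other arrays in the fit, the replicate block, a filter on dim probe sets (mean below 5), all probe sets, an intensity trend, the mean of a gene's probe sets, and leaving out each array. Leaving out both replicate 1 arrays was chosen after seeing the data.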

Additional observations from a re-analysis of the deposited data

How the results depend on the processing

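No called difference changed direction under the alternatives tried, but among the uncalled genes recomputed the glucosamine differences of ST6GAL1 (-0.30 to 0.24), B4GALT1 (-0.03 to 0.02) and GCNT1 (-0.12 to 0.42) took both signs. After glucosamine 8 of the 18 called genes kept their call in every alternative, and in Ramos 38 of 44 did. With the spread shared over all 8 arrays the genes higher after glucosamine numbered 5 in place of 9, and those lower 3 in place of 9, and 10 of the 18 calls were lost. With the replicate block, which pairs KMH2 arrays by number, 10 were higher and 14 lower, including all 9 lower in the fit without it. The block added ST3GAL2, ST3GAL5, GALNT5, GALNT17 and FUT8 on the lower side and GCNT3 on the higher side. In the cell-line fit the block also tied each Ramos array to the KMH2 arrays of its number, a link that no label gives. That fit lost ST8SIA3 (adjusted p = 0.0913, limma) and B3GNT4 (0.0741), added FUT3 (0.0484) and changed no other call of the 80 genes. Leaving out 1 array at a time gave 7 to 10 higher and 5 to 10 lower after glucosamine, the lowest without KMH2 control replicate 2. In Ramos it gave 19 to 22 higher and 20 to 23 lower. When 1 Ramos array was left out, the lone array was assumed to vary like the other groups. Other settings gave 17 to 23 higher and 20 to 23 lower in Ramos. The causes of these shifts were not tested. Of the 80 genes 20 had a mean signal below 5, which limits what could be seen in them.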
